A study of Rattus norvegicus with 15 samples.

Results

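The 10 protein-coding genes described here lie on either side of a stretch of noncoding DNA that was deleted from chromosome 2 of the Dahl salt-sensitive (SS) rat, an inbred model of hypertension driven by dietary salt. They were chosen by name and position from a deposited table of RNA levels, and the gene beside the deletion, Npr3, was left out. All 10 names were found, each on a single row, among 34357 rows that carry a gene identifier. The deleted interval spans 30.416 kb (chr2:60825801-60856216, rn7) and corresponds to a haplotype block of the human genome. RNA-seq of mesenteric artery and kidney cortex asked which genes respond to its loss. Both tissues came from male wild-type rats and male rats without the interval, called deletion here. The artery groups had 4 libraries each, and the kidney groups 3 (wild-type) and 4 (deletion). Age, diet and whether the libraries came from separate animals are not given in the sources used here, so each error or p-value reflects only how the libraries spread.

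Enhancers in noncoding DNA can act on genes at a distance, usually within the same folded domain of the chromosome, so the neighbours of a deleted stretch are the natural candidates for a local effect. The neighbours here have unrelated jobs. Prlr encodes the prolactin receptor, a cytokine receptor on the cell surface that signals through the kinase JAK2. Agxt2 is a mitochondrial aminotransferase that breaks down dimethylarginines, which inhibit nitric oxide synthase, and kidney is known as its main site. Amacr is the racemase that readies branched-chain fatty acids and bile acid intermediates for oxidation in peroxisomes. Adamts12 is a secreted matrix protease, Rai14 an ankyrin-repeat protein of actin filaments, Sub1 a transcription coactivator that binds single-stranded DNA, Zfr a zinc-finger protein that binds RNA, and Tars1 the threonyl-tRNA synthetase. Mtmr12 is a myotubularin without catalytic activity that stabilises its active relatives, and Golph3 binds phosphatidylinositol-4-phosphate on the Golgi.

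On rn7, 6 of the 10 genes lie at lower coordinates than the interval and 4 at higher coordinates. On the lower side, in order toward the interval, were Prlr (chr2:59134147-59324719, plus strand), Agxt2 (chr2:59336252-59377664, plus), Rai14 (chr2:59546284-59682687, minus), Amacr (chr2:59946158-59958255, plus), Adamts12 (chr2:60032873-60327629, plus) and Tars1 (chr2:60368893-60387715, minus). Their nearest edges stood 1501, 1448, 1143, 868, 498 and 438 kb from the interval. On the higher side, beyond Npr3, were Sub1 (chr2:61005646-61020486, minus), Zfr (chr2:61137611-61200322, plus), Mtmr12 (chr2:61223714-61293270, plus) and Golph3 (chr2:61348030-61376051, plus). Their nearest edges stood 149, 281, 367 and 492 kb from the interval, against 9.27 kb for Npr3. Sub1 was thus the closest of the 10 genes and Prlr the farthest.

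Levels are in FPKM, which are fragment numbers corrected for gene length and library size, and so let genes be compared with each other. Read depth is unknown. Summed over all genes, FPKM ranged from 285679 to 433477 across arteries and from 376270 to 459847 across kidneys. Some libraries stood apart. In the library labelled kidney wild-type 3, Xist, made from an inactive X chromosome, stood at 81.1 FPKM against at most 1.30 in the other libraries, and the Y-linked gene Eif2s3y was listed at 0 against 24.1 to 39.6, which goes against its male label. Artery wild-type 1 carried intestinal epithelium markers (summed FPKM 38.5, at most 3.93 in the other arteries) and artery wild-type 4 the highest sum of erythrocyte markers (104801). Kidney deletion 2 had the lowest summed proximal tubule markers (3713 FPKM against 5571 to 6893) and the highest podocyte and smooth muscle sums (202 against 96.1 to 158, and 101 against 55.2 to 71.2). All 8 smooth muscle markers and all 10 proximal tubule markers were found, and their sums separated the labelled tissues (1384 to 2813 FPKM in artery and 55.2 to 101 in kidney for muscle, 1.63 to 12.1 and 3713 to 6893 for tubule).

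The level of 4 flanking genes differed widely between the tissues. Agxt2, Amacr and Prlr were higher in kidney cortex, by 1300.3, 23.9 and 7.10 times in mean FPKM, and Adamts12 was 12.3 times higher in artery. The other 6 genes were present in both tissues and differed by at most 1.43 times in mean FPKM. The difference of the tissues was fitted on log2(FPKM + 0.5) with limma over all 15 libraries, as the mean of both artery groups minus the mean of both kidney groups, and a gene was called at a Benjamini-Hochberg adjusted p under 0.05 over all genes tested. By this test 2 of the 10 genes were higher in artery (Adamts12 and Zfr) and 6 were lower (Agxt2, Amacr, Prlr, Sub1, Tars1 and Rai14). Of all 16856 genes tested 77.0% were called (41.8% higher in artery and 35.2% lower), so 8 of 10 is close to the background. The median absolute log2 difference was 0.46 over the 10 genes and 0.72 over all genes tested. In all 10 genes both groups of the tissue with the higher mean ranked above both groups of the other tissue, and within each tissue the genotypes overlapped. In bulk tissue, fewer cells of a type and less RNA per cell cannot be told apart.

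**Figure D1:**
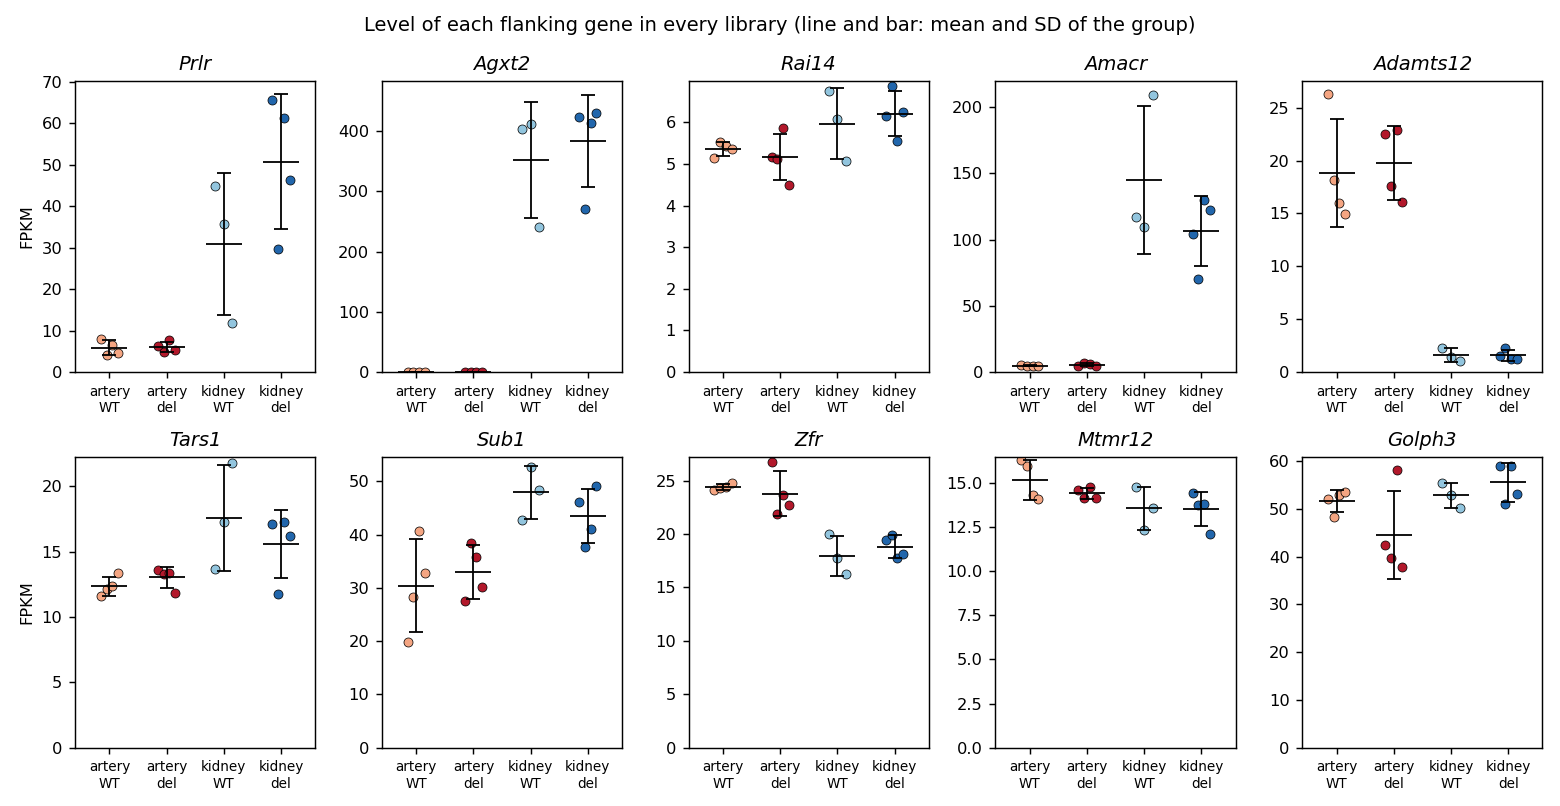
FPKM of the 10 flanking genes, 1 panel each with an axis from 0, with 1 point per library and the mean and SD of each group as lines (WT, wild-type; del, deletion). Agxt2, Amacr and Prlr lie higher in the kidney groups, Adamts12 lies higher in the artery groups, and within each tissue the wild-type and deletion points overlap for every gene.

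The hormone receptor of the group, Prlr, was a kidney-high gene with a wide spread. In artery its FPKM were 8.02, 4.14, 6.60 and 4.63 (wild-type) and 6.23, 4.92, 7.77 and 5.23 (deletion). In kidney they were 44.9, 35.6 and 11.9 (wild-type) and 65.6, 29.7, 61.3 and 46.2 (deletion). All kidney values lay above all artery values, and the lowest kidney value was that of the library labelled wild-type 3. The mean was 42.2 ± 18.5 FPKM (SD, n = 7) in kidney and 5.94 ± 1.45 FPKM (SD, n = 8) in artery. Prlr was lower in artery by a log2 difference of -2.54 (SE 0.26, limma adjusted p = 2.33e-07), and by -2.82 when kidney wild-type 3 was left out. The group means ran from kidney deletion through kidney wild-type and artery deletion to artery wild-type, and neighbours of 1 tissue in this order overlapped.

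Agxt2 showed the widest tissue difference of the 10 genes. Kidney libraries held 404, 413 and 241 FPKM in the wild-type group against 423, 270.1, 413 and 430.0 in the deletion group. Artery libraries held 0.364, 0.558, 0.373 and 0.152 FPKM against 0.0507, 0.516, 0.0698 and 0.195. Agxt2 was thus the highest of the 10 genes in kidney (371 ± 79.6 FPKM, SD, n = 7) and the lowest in artery (0.285 ± 0.196 FPKM, SD, n = 8). The kidney libraries labelled wild-type 3 and deletion 2 were the lowest of their groups. The log2 difference of artery minus kidney was -8.88 (SE 0.17, limma adjusted p = 3.74e-16), and only 0.160% of genes differed by as much. The artery level is near the added 0.5 FPKM, so the size depends on it, and with 0.1 FPKM added the difference was -10.06.

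Amacr, the peroxisomal racemase, was the other enzyme and the next highest of the 10 genes in kidney. Its FPKM in kidney were 117, 109 and 209 for wild-type and 104, 70.3, 129.9 and 122 for deletion. In artery, wild-type libraries gave 5.53, 4.93, 4.48 and 4.61 FPKM, and deletion libraries 4.51, 6.71, 5.95 and 4.53. The extremes among the kidneys were again the libraries labelled wild-type 3, here the highest, and deletion 2, the lowest. Means were 123 ± 42.5 FPKM (SD, n = 7) in kidney and 5.16 ± 0.829 FPKM (SD, n = 8) in artery, with a log2 difference of -4.43 (SE 0.16, limma adjusted p = 5.6e-13). Only Agxt2 among the 10 differed more between the tissues.

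The promoters of Agxt2, Amacr, Adamts12 and Mtmr12 are shown because these genes mark the kidney-high, artery-high and evenly expressed patterns. Each window runs from 250 bases before to 50 bases after the start in RefSeq on GRCr8, a later build than the rn7 of the deposited table, and 9 of the 10 genes matched an entry. All 4 lie on the plus strand, at chr2:61063166-61063465 for Agxt2, chr2:61673085-61673384 for Amacr, chr2:61759737-61760036 for Adamts12 and chr2:62950639-62950938 for Mtmr12. Capitals mark matches, on either strand, to the motifs searched, which were the SP1 box GGGCGG, the TATA box TATAAA, the CCAAT box, the HNF1 motif GTTAAT, the HNF4 site CAAAGTCCA and the ETS site CCGGAAG.
Agxt2: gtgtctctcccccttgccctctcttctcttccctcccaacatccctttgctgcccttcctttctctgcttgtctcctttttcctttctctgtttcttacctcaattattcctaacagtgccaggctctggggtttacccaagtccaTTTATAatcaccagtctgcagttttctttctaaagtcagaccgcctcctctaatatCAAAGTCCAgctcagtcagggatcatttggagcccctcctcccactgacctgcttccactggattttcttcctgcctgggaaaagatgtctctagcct
Amacr: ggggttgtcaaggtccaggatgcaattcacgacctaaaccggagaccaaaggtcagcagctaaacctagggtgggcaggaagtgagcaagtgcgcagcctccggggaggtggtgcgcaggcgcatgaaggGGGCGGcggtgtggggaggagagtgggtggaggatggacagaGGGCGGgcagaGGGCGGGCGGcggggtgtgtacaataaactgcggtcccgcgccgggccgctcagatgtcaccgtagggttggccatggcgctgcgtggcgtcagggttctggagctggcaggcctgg
Adamts12: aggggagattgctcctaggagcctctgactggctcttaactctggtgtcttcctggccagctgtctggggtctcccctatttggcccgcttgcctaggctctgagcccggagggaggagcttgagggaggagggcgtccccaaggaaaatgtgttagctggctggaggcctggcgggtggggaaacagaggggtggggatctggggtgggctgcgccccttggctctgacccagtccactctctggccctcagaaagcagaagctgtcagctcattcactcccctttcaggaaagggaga
Mtmr12: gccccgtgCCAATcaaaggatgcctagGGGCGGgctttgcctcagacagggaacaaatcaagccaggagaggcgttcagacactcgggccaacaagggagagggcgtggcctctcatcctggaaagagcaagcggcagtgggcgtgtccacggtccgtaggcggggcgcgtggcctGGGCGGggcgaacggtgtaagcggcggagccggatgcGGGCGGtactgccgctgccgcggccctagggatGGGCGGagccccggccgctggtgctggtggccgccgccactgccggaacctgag
Agxt2 held the HNF4 site letters, first base at position -48 from the start, which 0.391% of all 33469 promoter windows hold. It also held the TATA letters on the opposite strand at -104, found in 14.2% of windows. The window of Amacr held 4 SP1 boxes, at -120, -78, -67 and -63, of which the last and the one before it overlap. Mtmr12 also held 4, at -223, -74, -37 and -4, with the CCAAT letters at -242. SP1 box letters occur in 33.1% of windows and CCAAT letters in 37.5%, and none of the 6 motifs was found in the window of Adamts12. Among the windows not shown, those of kidney-high Prlr and of Rai14 and Zfr also held none of the 6. The HNF1 letters, found in 7.45% of all windows, occurred among these genes only in Golph3, which was of similar level in both tissues. The GC content was 48.7% in Agxt2, 66% in Amacr, 61.3% in Adamts12 and 69.7% in Mtmr12, against a median of 51.7% over all windows. CpG dinucleotides numbered 1, 21, 5 and 29 in these windows, against a median of 7. These are matches of letters and no binding was measured.

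Among the matrix and cytoskeleton genes, Adamts12 was the artery-high gene of the group. Artery libraries held 26.3, 18.2, 16.0 and 14.9 FPKM with the interval and 22.5, 17.6, 22.9 and 16.0 without it. Kidney libraries held 2.29, 1.43 and 0.997 FPKM with the interval and 1.56, 2.30, 1.22 and 1.19 without it. Every artery library lay above every kidney library, and Adamts12 was the lowest of the 10 genes in kidney. The mean was 19.3 ± 4.08 FPKM (SD, n = 8) in artery and 1.57 ± 0.526 FPKM (SD, n = 7) in kidney, a log2 difference of 3.27 (SE 0.16, limma adjusted p = 3.69e-11). Rai14, the actin-associated protein, ranged only from 4.51 to 5.87 FPKM in artery and from 5.07 to 6.88 FPKM in kidney. Its log2 difference of -0.19 (SE 0.08, limma adjusted p = 0.0497) was at the edge of the threshold. The call was lost in 16 of 27 alternatives, 12 of them from leaving out a single library, with adjusted p from 0.00508 to 0.411.

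The nucleic acid genes differed little between the tissues. Sub1 in artery gave 19.8, 28.4, 40.7 and 32.9 FPKM (wild-type) and 27.5, 38.5, 35.8 and 30.2 FPKM (deletion). In kidney it gave 42.8, 52.7 and 48.5 FPKM (wild-type) and 46.2, 37.7, 41.1 and 49.2 FPKM (deletion). The tissues overlapped, with artery wild-type 3 and deletion 2 above the lowest kidney library, and the log2 difference was -0.54 (SE 0.13, limma adjusted p = 0.00153). Zfr, the RNA-binding zinc-finger protein, ranged from 21.9 to 26.7 FPKM in artery and from 16.2 to 19.95 FPKM in kidney, with no overlap and a log2 difference of 0.38 (SE 0.07, limma adjusted p = 7.82e-05). Tars1, the synthetase, ranged from 11.6 to 13.6 FPKM in artery and from 11.8 to 21.7 FPKM in kidney, a log2 difference of -0.35 (SE 0.10, limma adjusted p = 0.00546). Quantile normalization ended the calls of Sub1 (-0.22, adjusted p = 0.141) and Tars1 (-0.23, adjusted p = 0.0568). The call of Tars1 was also lost in the deletion libraries alone (-0.24, adjusted p = 0.133). Over all alternatives the adjusted p ran from 7.85e-06 to 0.141 for Sub1 and from 2.77e-05 to 0.133 for Tars1.

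Mtmr12, a gene of membrane traffic, was the most even of the 10 genes. It ranged from 14.1 to 16.3 FPKM in artery and from 12.1 to 14.8 FPKM in kidney. Its coefficient of variation over all 15 libraries was 7.73%, and only 0.492% of the 16856 genes varied less. The other 3 lowest were Rai14 at 11.7%, Golph3 at 12.8% and Zfr at 14.9%. The tissue difference of Mtmr12 did not pass the test (log2 difference 0.12, SE 0.07, limma adjusted p = 0.0934), but did so in 3 of 27 alternatives, with adjusted p from 0.00216 to 0.407. These were quantile normalization (0.23), library weights (0.19), whose estimation did not converge, and leaving out kidney wild-type 1 (0.16).

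Golph3, the Golgi lipid-binding protein, was the highest of the 10 genes in artery. Wild-type arteries gave 52.0, 48.2, 52.9 and 53.5 FPKM, whereas those without the interval gave 42.5, 39.7, 58.0 and 37.9. Kidneys gave 55.4, 52.8 and 50.1 FPKM with the interval, and 59.0, 50.9, 59.0 and 53.2 without it. Of the deletion arteries 3 lay below all wild-type arteries and the remaining library, deletion 3, lay above all of them. The log2 difference between tissues was -0.18 (SE 0.09, limma adjusted p = 0.0768). Its direction depended on the scaling, with 0.21 (adjusted p = 0.0289) after quantile normalization and -0.25 (adjusted p = 0.0356) after median-of-ratios scaling. It was also called with those library weights (-0.21) and without artery deletion 3 (-0.25), and adjusted p ran from 0.00477 to 0.810 over the alternatives.

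**Figure D2:**
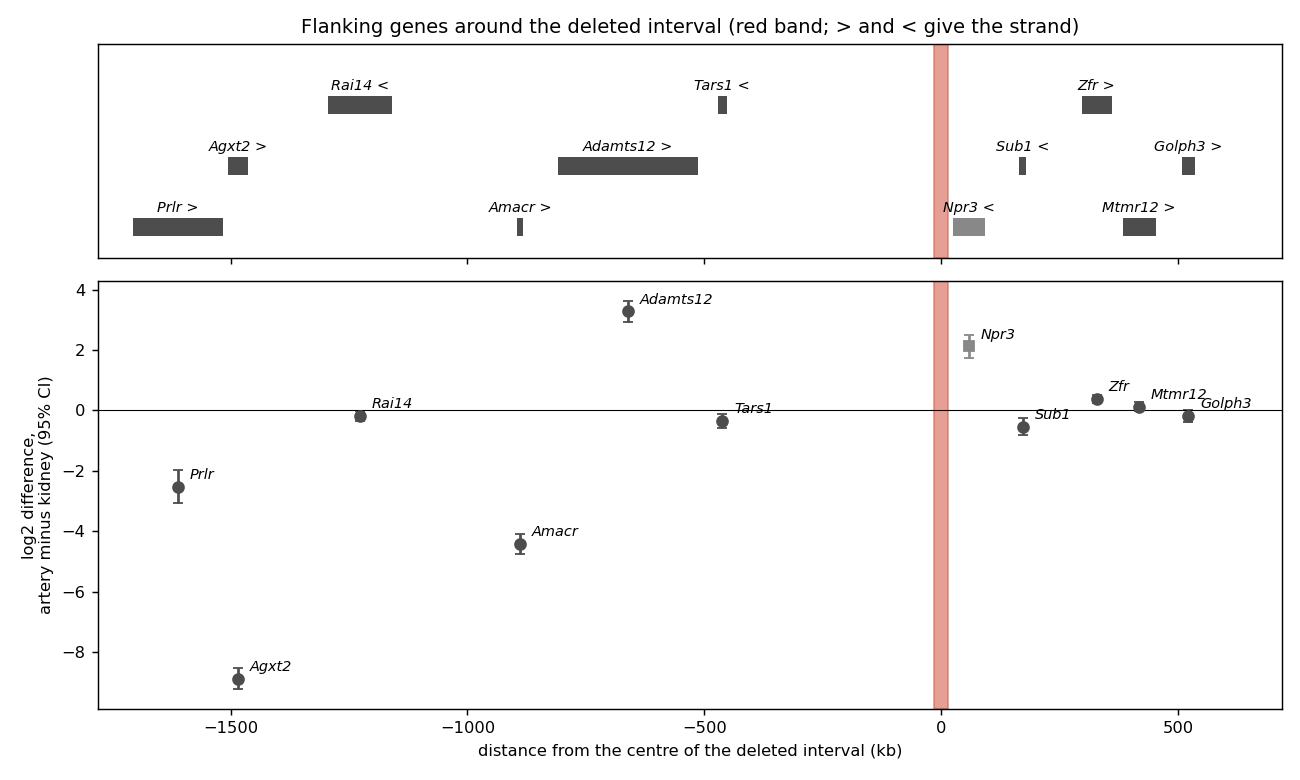
Top, the 10 flanking genes and Npr3 drawn to scale by distance in kb from the centre of the deleted interval (red band), with > and < for the strand. Bottom, the log2 difference of artery minus kidney with its 95% confidence interval at the middle of each gene. Agxt2, Amacr and Prlr (-8.88, -4.43 and -2.54) and Adamts12 (3.27) lie on the side of lower coordinates. Of the 10 genes, the 4 on the other side lie between -0.54 and 0.38, and Npr3, also on that side, lies at 2.12.

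Tissue patterns were shared by some neighbouring genes and not by others. Prlr and Agxt2, 11.5 kb apart, were both kidney-high. Amacr was kidney-high, while Adamts12, the next of the 10 genes at 74.6 kb, was artery-high, and Tars1, 41.3 kb further, was of similar level in both tissues. C1qtnf3, which ends 6.64 kb before Amacr and is named here after its values were seen, was also kidney-high, at 28.1 ± 7.33 FPKM (SD, n = 7) against 0.5997 ± 0.234 FPKM (SD, n = 8) in artery (log2 difference -4.70, limma adjusted p = 2.04e-12). In a list of 23 neighbours of the interval that includes the 10 genes, 19 were tested, of which 7 were higher and 9 lower in artery, where 41.8% of all genes were higher and 35.2% lower. Their median log2 difference was -0.19, against 0.11 over all genes.

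Among 9419 genes averaging 5 FPKM or more, likeness to a pattern was measured as the mean absolute log2 difference over the 15 libraries after centring each gene on its own mean. Among the nearest genes to Agxt2 were Slc22a8 (0.24), an organic anion transporter of the proximal tubule, and Acsm2 (0.24). Nearest to Amacr were Thnsl2 (0.15), Mapk4 (0.16) and Aldh4a1 (0.16). Slc22a8 averaged 0.0279 FPKM in artery and 205.9 FPKM in kidney, Acsm2 0.0758 and 378 FPKM, and Mapk4 0.0972 and 11.8 FPKM. Agxt2 itself averaged 0.285 FPKM in artery. The likeness of these genes therefore depends on the 0.5 FPKM added before taking logs. Prlr was followed less closely, by Cndp1 (0.21), Tmem144 (0.29) and Atp11a (0.30). Nearest to Adamts12 were Col5a1 (0.14) and Col5a2 (0.15), chains of type V collagen, and Loxl2 (0.14), a collagen cross-linking enzyme.

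The partners of these genes in their pathways are described by counts of called genes, beside the 77.0% of all genes called for the tissue difference (41.8% higher and 35.2% lower in artery) and the median log2 difference of 0.11 over all genes. The share called was below 77.0% in the prolactin, dimethylarginine, tRNA synthetase, myotubularin and ZFR and SUB1 lists. Of 12 genes of prolactin and growth hormone signalling, 7 were higher and 1 lower in artery (median log2 difference 0.57), whereas Prlr itself was lower. Socs2, a feedback inhibitor of this signalling, averaged 12.6 ± 1.88 FPKM over arteries (SD, n = 8) and 2.88 ± 0.576 FPKM over kidneys (SD, n = 7), and the adaptor Shc1 differed by 1.16 on the log2 scale. All 12 genes of peroxisomal branched-chain and bile acid oxidation were lower in artery, as Amacr was (median -1.75). Among them the acyl-CoA synthetase and transporter Slc27a2 differed by -7.55 and the peroxisomal transporter Abcd3 by -1.96. Of 8 tested genes of dimethylarginine and glyoxylate metabolism, 3 were higher and 3 lower in artery (median 0.00026). Ddah1, which also degrades dimethylarginines, averaged 10.5 ± 1.84 FPKM over arteries (SD, n = 8) and 221 ± 27.6 FPKM over kidneys (SD, n = 7), and the glyoxylate reductase Grhpr differed by -5.64.

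Of 15 tested ADAMTS proteases, 12 were higher and 1 lower in artery (median 1.27), where 41.8% of all genes were higher and 35.2% lower. Adamts2, which trims procollagen, averaged 23.1 ± 3.18 FPKM over arteries (SD, n = 8) and 0.677 ± 0.193 FPKM over kidneys (SD, n = 7), and the aggrecan-degrading Adamts5 averaged 46.5 ± 12.7 FPKM (SD, n = 8) and 4.40 ± 1.62 FPKM (SD, n = 7). Of 17 cytosolic tRNA synthetases, 10 were lower and 3 higher in artery (median -0.32), including the alanyl enzyme Aars1 (-1.61). Of 12 genes of the myotubularin family, 7 were lower and 2 higher (median -0.32), including Mtmr6 (-0.87) and Mtmr10 (-0.91). Of 10 Golgi phosphoinositide genes and partners of GOLPH3, 6 were lower and 3 higher (median -0.28), including the myosin Myo18a (-1.40) and the lipid phosphatase Sacm1l (-0.93). Of 9 partners of ZFR and SUB1, 3 were lower and 2 higher (median 0.05), including Strbp (-1.30), a relative of ZFR, and Tbp (0.43), the TATA-binding protein.

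No change with the deletion was detectable in any flanking gene in artery. None of the 9 genes tested was called by limma in the main fit, none had an unadjusted p under 0.05 in it, and the groups overlapped for all of them. Of all 16470 genes tested in artery 0% were called, 5.24% had an unadjusted p under 0.05 and 3.25% had groups that did not overlap. The median absolute log2 change was 0.07 over the 9 genes and 0.13 over all genes. Golph3 had the largest estimate, a log2 change of -0.23 (SE 0.14, adjusted p = 0.893). The ratio of deletion to wild-type was 0.852, with a 95% confidence interval from 0.688 to 1.05. Without artery deletion 3, the library that lay above the wild-type arteries, the log2 change of Golph3 was -0.36 (adjusted p = 0.713, and between 0.713 and 0.9999 over the alternatives). The unadjusted limma p of Golph3 was 0.00427 without that library, 0.0363 after quantile normalization and 0.0779 or more in the other alternatives.

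The other artery estimates lay between -0.07 (Mtmr12) and 0.15 (Sub1). Sub1, the gene of the 10 closest to the interval, had a ratio of 1.11 with an interval from 0.806 to 1.52. The farthest, Prlr, had a ratio of 1.05 with an interval from 0.751 to 1.459. The narrowest intervals were those of Mtmr12 (0.840 to 1.09), Zfr (0.850 to 1.11) and Tars1 (0.921 to 1.20). Adamts12 had a ratio of 1.06 (0.795 to 1.42), Amacr 1.09 (0.867 to 1.37) and Rai14 0.963 (0.814 to 1.14). Agxt2 did not reach the mean of 0.5 FPKM required for testing. Without that filter its log2 change was -0.31 (SE 0.23, adjusted p = 0.912), at levels of 0.362 ± 0.166 FPKM in wild-type and 0.208 ± 0.215 FPKM in deletion arteries (SD, n = 4 each).

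In kidney, likewise, none of the 10 genes was called by limma in the main fit. None had an unadjusted p under 0.05 in that fit, and none had groups that did not overlap. Of all 15444 genes tested 0% were called, 1.41% had an unadjusted p under 0.05 and 2.55% did not overlap. The median absolute log2 change was 0.11 over the 10 genes and 0.12 over all genes. Prlr had the largest estimate. Deletion kidneys averaged 50.7 ± 16.3 FPKM (SD, n = 4) and wild-type kidneys 30.8 ± 17.0 FPKM (SD, n = 3), a log2 change of 0.84 (SE 0.43, adjusted p = 0.999). The ratio of 1.79 had a 95% confidence interval from 0.919 to 3.50, and 0.557% of genes had as large an absolute change.

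The estimate for Prlr rested largely on the library labelled kidney wild-type 3. Without it the wild-type mean was 40.3 ± 6.59 FPKM (SD, n = 2) and the log2 change 0.27, and leaving out wild-type 1 instead gave 1.21. Adjusted p ran from 0.0976 to 0.99999 over the alternatives, and was lowest when limma weighted the libraries by their noise (log2 change 0.64), weights whose estimation did not converge in kidney. The estimate of Prlr stayed above 0 in all 19 alternatives. Its unadjusted limma p was 0.0113 with those weights and 0.0233 without wild-type 1. It was 0.0240 with proximal tubule markers as a covariate, 0.0392 with both tissues in 1 fit and 0.0543 or more in the other alternatives. With those weights Sub1 had an unadjusted p of 0.0273 (adjusted p = 0.143). Amacr had the next largest estimate, a log2 change of -0.42 (SE 0.28, adjusted p = 0.999) and a ratio of 0.750 (0.482 to 1.17). It was -0.12 without kidney wild-type 3, -0.23 without kidney deletion 2 and 0.0093 with those weights. The log2 change of Agxt2 was 0.14 (SE 0.28), with a ratio of 1.10 (0.719 to 1.69), and it turned to -0.11 without kidney wild-type 3 and to 0.30 without deletion 2. That of Tars1 was -0.16 (SE 0.18), and 0.00495 without kidney wild-type 3. The library labelled kidney wild-type 3 was the lowest of the kidneys for Prlr, Agxt2, Rai14, Adamts12, Zfr and Golph3, and the highest for Amacr and Tars1.

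For the remaining 6 genes the kidney log2 estimates ran from -0.14 (Sub1) to 0.07 (Golph3 and Zfr). Sub1 had a ratio of 0.906 with an interval from 0.724 to 1.14, and Golph3, with an estimate below 0 in artery, had 1.05 with an interval from 0.858 to 1.29. The ratio of Mtmr12 was 0.997 (0.833 to 1.19), of Zfr 1.05 (0.876 to 1.25), of Rai14 1.04 (0.831 to 1.30) and of Adamts12 1.01 (0.659 to 1.54). The intervals of Prlr, Agxt2, Amacr and Adamts12 were the widest in kidney, and these are the genes with the largest tissue differences.

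**Figure D3:**
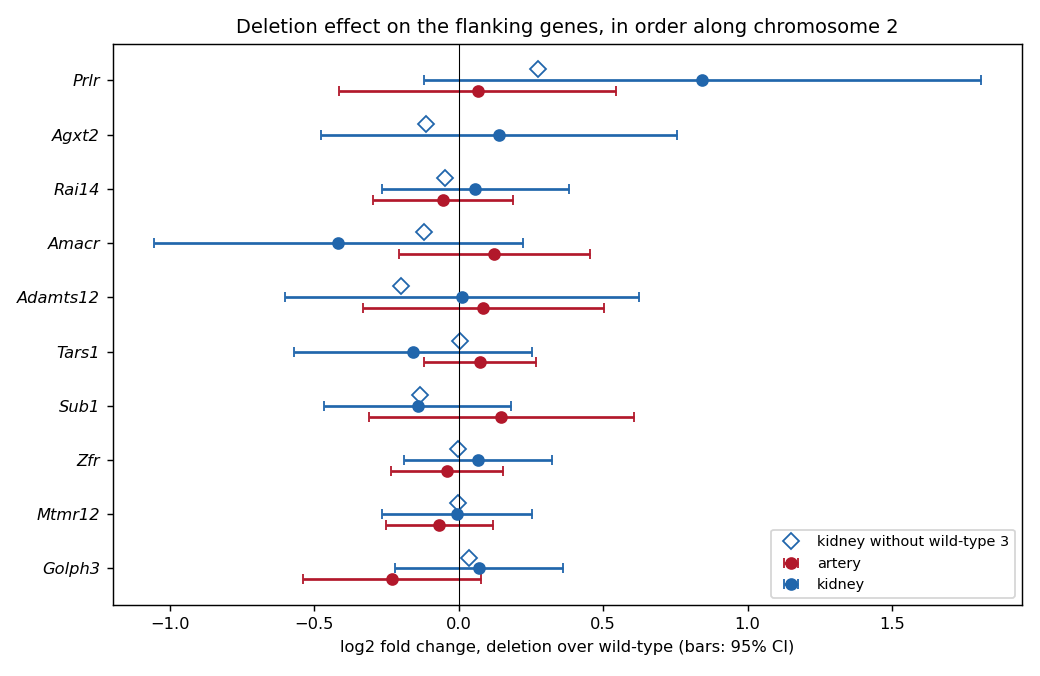
Log2 change of deletion against wild-type on log2(FPKM + 0.5) for the flanking genes in artery and kidney, with 95% confidence intervals from limma; the kidney estimates without the library labelled wild-type 3 are drawn beside them. Every interval includes 0, and the kidney estimate of Prlr is 0.84 with that library and 0.27 without it.

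The difference of the deletion effect between the tissues was tested by an interaction term (artery effect minus kidney effect) over all 15 libraries. None of the 10 genes was called by limma or had an unadjusted p under 0.05, as was the case for 0% and 4.39% of all 16856 genes. The median absolute value was 0.26 over the 10 genes and 0.19 over all genes. The estimates with the smallest p were those of Amacr (0.54, SE 0.32), Golph3 (-0.30, SE 0.18) and Prlr (-0.78, SE 0.51), each with an adjusted p of 0.943. Without kidney wild-type 3 the interaction was 0.24 for Amacr and -0.21 for Prlr. Without kidney deletion 2 it was 0.35 for Amacr, and with library weights, whose estimation did not converge, 0.028.

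In both tissues 0 genes of any of the 8 partner lists and 0 of the list of 23 neighbours (18 tested in artery, 19 in kidney) were called by limma for the deletion. At an unadjusted p under 0.05, which 5.24% of all genes had in artery and 1.41% in kidney, there were 0 neighbours in either tissue. In artery such genes numbered 2 in each of the peroxisomal, dimethylarginine and ADAMTS lists, 1 among the partners of ZFR and SUB1 and 0 in the other 4 lists. In kidney there was 1, in the peroxisomal list. The dimethylarginine genes were Ddah2 (log2 change 0.43, adjusted p = 0.893) and Ddah1 (-0.35, adjusted p = 0.893). In the peroxisomal list, the estimates of 10 of 10 tested genes lay above 0 in artery (median 0.18, against 0.04 over all genes). In kidney those of 10 of 12 lay below 0 (median -0.15, against 0.04). An example is the thiolase Acaa1a, with log2 changes of 0.46 in artery (limma adjusted p = 0.893) and -0.41 in kidney (adjusted p = 0.999). Signs were also uneven in other lists. In artery 11 of 12 myotubularin and 13 of 15 ADAMTS estimates lay above 0. In kidney 10 of 12 prolactin estimates lay above 0 and 13 of 17 tRNA synthetase estimates below 0. In each tissue the signs were more even in the remaining lists. The share of all genes on either side of 0 is not given here. Kidney deletion 2 had the lowest summed proximal tubule markers of the kidneys, as given with the marker sums. The part of adipocyte content, of tubule content and of the libraries kidney wild-type 3 and kidney deletion 2 in these list medians was not tested. Npr3, the gene beside the interval, had a log2 change of 0.37 in artery and -0.08 in kidney, with adjusted p of 0.893 and 0.999.

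For Sub1, Amacr and Agxt2, the spread over libraries is set beside the sum of a marker list. These pairs are examples and other pairs of gene and list are not described. How often such matches arise among other pairs was not tested. Sub1 in artery was highest in wild-type 3 and deletion 2, the libraries with the highest summed B and T cell markers (134 and 96.8 FPKM). Below these the orders differed, with Sub1 at 35.8 FPKM in deletion 3 (marker sum 18.7 FPKM) and 32.9 FPKM in wild-type 4 (40.1 FPKM). All 8 of these markers were found and none was at 0 in an artery, and their sum ranged from 7.15 to 134 FPKM in wild-type and from 4.85 to 96.8 FPKM in deletion arteries. Amacr in artery was highest in deletion 2, deletion 3 and wild-type 1, the libraries with the highest summed adipocyte markers (5248, 4272 and 3986 FPKM). Among the remaining arteries the orders differed, with Amacr at 4.93 FPKM in wild-type 2 (marker sum 2846 FPKM) and 4.61 FPKM in wild-type 4 (3128 FPKM). All 10 adipocyte markers were found and none was at 0 in an artery. Their sum ranged from 2846 to 3986 FPKM in wild-type and from 2623 to 5248 FPKM in deletion arteries. With the mean log2(FPKM + 0.5) of these markers, not their sum, as a covariate the artery log2 change of Amacr was 0.0095 in place of 0.12. The change of 0.12 was itself smaller than its SE of 0.15 (limma adjusted p = 0.912). Agxt2 in kidney was low in deletion 2, the library with the lowest summed proximal tubule markers (3713 FPKM). It was lowest in the library labelled wild-type 3, where that sum was 6829 FPKM. All 10 tubule markers were found, and their sum ranged from 5571 to 6829 FPKM in wild-type and from 3713 to 6893 FPKM in deletion kidneys. With the mean log2(FPKM + 0.5) of these markers, not their sum, as a covariate the kidney log2 change of Agxt2 was 0.039 in place of 0.14. In that mean the marker Slco1a1 was at 0.0505 FPKM in wild-type 3, against 49.96 to 132.6 FPKM in the other kidneys. The part of this marker in the change was not tested. The part of B and T cells in the values of Sub1 was not tested, nor was that of adipocytes in Amacr or of tubule content in Agxt2.

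**Figure D4:**
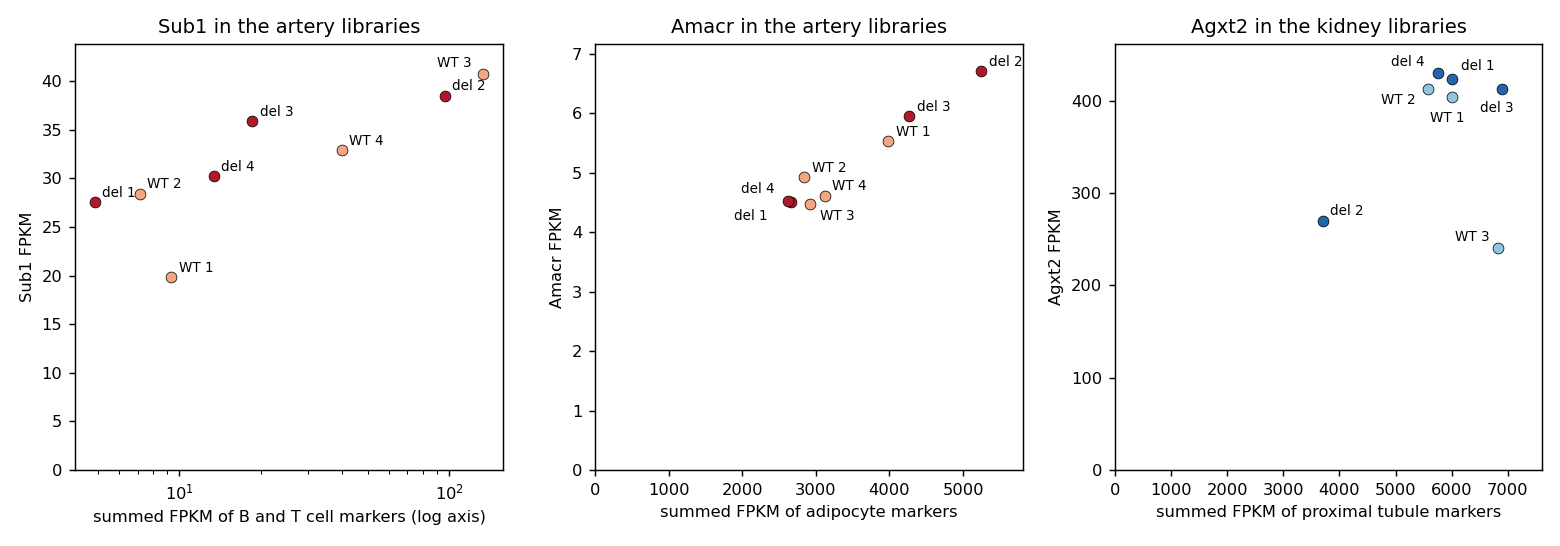
FPKM of a flanking gene in each library against the summed FPKM of a marker list in the same library, for Sub1 with B and T cell markers (log axis) in artery, Amacr with adipocyte markers in artery and Agxt2 with proximal tubule markers in kidney. Points are labelled WT (wild-type, light) or del (deletion, dark) with the library number; Agxt2 is at 270.1 FPKM in deletion 2 and at 241 FPKM in wild-type 3, and at 404 FPKM or more in the others.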

How the data were processed

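RNA-seq libraries of total RNA numbered 15. The deposited values are FPKM made by the authors, 1 column per library, made by a tool that the sources used here do not name. Per the submitters' processing notes, HISAT2 2.2.1, Trim Galore 0.6.2, the build rn7 and DESeq2 1.46.0 were used, with no role stated. Of 40694 rows, 6337 had no gene identifier and were 0 throughout. The low FPKM values showed no whole-read steps, so depth is unknown and no counting interval was given. A coverage column of no stated sample was not used.

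FPKM were analysed as log2(FPKM + 0.5) with limma 3.58.1 in R 4.3.3 (trend and robust moderation, two-sided), where the mean over the libraries fitted reached 0.5 FPKM. P-values were Benjamini-Hochberg adjusted over all genes tested, with a threshold of 0.05. Groups came from the sample titles. Members and lists were chosen with earlier results of these data known. Named were the 10 genes, Npr3, the 2 genes of smallest p of each list and the 3 genes of most like pattern, of which 2 genes are not reported here. The fits were tested on simulated data with changes of log2 size 1 and 2. These were recovered at 67% and 91% in artery (16470 genes), and at 64% and 94% in kidney (15444 genes). For the interaction they were recovered at 45% and 93% (16856 genes). Noise was drawn separately for each gene, without shifts of whole libraries, and many genes above a minimum level were changed at once. Recovery in the real data may therefore be lower. Alternatives were pseudocounts, filters, scalings, weights, a replicate block, covariates and leaving out libraries. Plots used matplotlib 3.10.9 (Python 3.11.15).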

Additional observations from a re-analysis of the deposited data

Results flagged for a closer look

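Agxt2 stood at 270.1 FPKM in kidney deletion 2, far below the other deletion kidneys at 413 to 430.0 FPKM. Tars1 stood at 11.8 FPKM in artery deletion 4, below the other deletion arteries at 13.3 to 13.6 FPKM. In each case the gap to the nearest library exceeded Dixon's critical value for a group of 4. Such a gap arises by chance in about 1 of 20 groups, and 30 combinations of gene and group were examined.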

How the results depend on the processing

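No flanking gene was called for the deletion under any alternative run. Over all genes, the count called in artery was 1 with a pseudocount of 0.1 and 0 to 1 when single libraries were left out. In kidney it was 282 with array weights (188 higher, 94 lower), whose estimation did not converge in kidney (weights from 0.268 to 18.2), 1 with both tissues in 1 fit, and 0 to 1 when single libraries were left out. Of the values of the flanking genes tested (9 in artery, 10 otherwise), 173 of 180 in artery, 169 of 190 in kidney and 243 of 250 for the interaction kept their direction, and 244 of 270 for the tissue difference kept direction and call. The causes were not tested.

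With artery wild-type 1, artery wild-type 4 and kidney wild-type 3 left out together, an alternative chosen after seeing the data, the log2 change of Sub1 in artery turned to -0.054. In kidney it turned to -0.11 for Agxt2, -0.046 for Rai14, -0.20 for Adamts12, 0.0050 for Tars1 and -0.0025 for Zfr. Quantile normalization gave -0.00041 for Rai14 and -0.11 for Adamts12 in kidney, and a tissue difference of 0.21 for Golph3. Array weights gave 0.0093 for Amacr, -0.023 for Adamts12 and 0.12 for Mtmr12 in kidney, and median-of-ratios scaling -0.022 for Adamts12.

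Leaving out single libraries moved the artery log2 change from -0.071 to 0.22 for Prlr, -0.11 to 0.0031 for Rai14, -0.012 to 0.25 for Adamts12 and -0.039 to 0.30 for Sub1. In kidney it moved from -0.11 to 0.30 for Agxt2, -0.046 to 0.14 for Rai14, -0.20 to 0.25 for Adamts12, -0.32 to 0.0050 for Tars1, -0.0025 to 0.14 for Zfr and -0.068 to 0.058 for Mtmr12. The interaction moved from -0.16 to 0.29 for Adamts12 and -0.13 to 0.0012 for Mtmr12.

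The replicate numbers were not taken to pair the libraries in the main fits, and the labels do not say whether they do. Deviations of same-numbered libraries correlated at 0.32, -0.34, 0.24 and 0.30 in artery and at 0.08, -0.0079 and 0.27 in kidney, not over 0.1 for every pair. With a replicate block, 0 genes were called in artery and 0 in kidney, 12901 for the tissue difference and 0 for the interaction. The block turned Mtmr12 in kidney to 0.045 and the interaction of Adamts12 to -0.012.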
